A study of Mus musculus with 12 samples.

Results

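Mmp2 encodes matrix metalloproteinase 2, also called gelatinase A, and is described here as 1 gene of the 12151 genes measured in leukemic mouse pre-B cells. It was selected on its own values in these libraries, as a gene that was higher after editing of Ikzf1 and Ikzf3 and higher again after stabilization of β-catenin, so its levels, differences and ranks are descriptions and carry no test. Matrix metalloproteinases are zinc-dependent proteases that cut proteins of the extracellular matrix. Mmp2 is secreted as an inactive pro-enzyme, in which a cysteine of the prodomain holds the catalytic zinc, and becomes active when membrane-type metalloproteinases, helped by the inhibitor Timp2, remove that prodomain. The active enzyme degrades gelatin and the type IV collagen of basement membranes and can release matrix-bound growth factors. In bone marrow and most other tissues it is known mainly as a product of stromal cells and fibroblasts, and in blood cancers it has been studied for its part in passage through matrix.

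The RNA came from pre-B cells grown from bone marrow of mice aged 6 to 12 weeks and transformed by BCR-ABL1, the fusion kinase of a form of acute lymphoblastic leukemia. All 4 groups share that oncogene and the Ctnnb1Ex3fl/+ genotype, in which Cre removes exon 3 of 1 copy of the β-catenin gene and thereby stabilizes the protein. The ERT2 WT group (genotype tag ERT2 sgNTC) had been electroporated with Cas9 and nontargeting guides and carried an ERT2 control vector, while the Cre-ERT2 WT group carried Cre-ERT2 on the same nontargeting background. The ERT2 KO and Cre-ERT2 KO groups carried the same vectors after electroporation with guides against Ikzf1 and Ikzf3, the genes of the lymphoid transcription factors Ikaros and Aiolos. Each group held 3 libraries, grown from single-cell-derived lines, sorted for the GFP of the vector and, in a protocol worded for chromatin experiments, collected at day 1 after 4-hydroxytamoxifen (4-OHT). The labels do not say whether the 3 libraries of a group are separate lines or separate cultures, so p-values measure only the spread between these libraries, which may be technical, and traits of a line cannot be told apart from the editing.

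The log2 values were normalized by the authors and are not per length, and the depth of the libraries is unknown because the table holds no counts. Library medians lay between 9.06 and 9.11. Ikzf1 RNA was higher in the KO libraries (14.75 ± 0.00668, SD, n = 3, in ERT2 KO against 13.74 ± 0.0116 in ERT2 WT) and Ikzf3 RNA was lower (10.98 ± 0.014 against 11.63 ± 0.0492). An RNA level does not show whether an edited gene still makes protein. The pre-B cell markers Cd79a, Vpreb1 and Blnk, named after their values were seen, were present in every group. In the WT groups the means of Cd79a were 15.10 with ERT2 and 15.16 with Cre-ERT2, against 14.31 and 14.40 in the KO groups. Those of Vpreb1 were 13.30 and 13.14 against 12.75 and 12.62, and those of Blnk were 13.30 and 13.29 against 12.65 and 12.57. Each of these 3 genes fell upon editing in ERT2 libraries (limma, adjusted p under 0.05 over 12151 genes). All 14 pre-B markers looked for had a row, and in this comparison 11 were called lower and 2 higher. Of all genes 29.3% were called lower and 29.8% higher. The largest falls among the 14 were in Cd24a (-1.07) and Dntt (-0.87). The pre-B markers not called lower, also named after their values were seen, were Rag1, Rag2 and Ebf1. Rag1 and Rag2, the recombinase genes, rose by 0.32 (adjusted p = 1.93e-05) and 0.38 (adjusted p = 5.21e-06), and Ebf1, an early B cell factor, differed by -0.05 (adjusted p = 0.177).

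Mmp2 (ENSMUSG00000031740) lies on the plus strand of chromosome 8 at chr8:92827291-92853420 in GRCm38. Its main transcript has 13 exons and 3078 bases, of which 1986 are coding sequence for 662 codons. The stretches that make the protein a metalloproteinase are shown because they identify the enzyme and set it beside its relatives in the table. Codons 100 to 106 encode the cysteine switch of the prodomain, with the cysteine codon in capitals, and codons 403 to 413 encode the catalytic zinc site, with the codons of the 3 zinc-binding histidines in capitals.
Mmp2 cysteine switch: ccaagaTGTggcaacccagat
Mmp2 zinc site: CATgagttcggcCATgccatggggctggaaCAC
Mmp11 zinc site: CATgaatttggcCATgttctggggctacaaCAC
Mmp15 zinc site: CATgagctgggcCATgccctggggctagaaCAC
Mmp16 zinc site: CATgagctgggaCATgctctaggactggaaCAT
Over these 33 bases Mmp2 matched Mmp15 at 29 positions, Mmp11 at 26 and Mmp16 at 25. Across the whole main transcript, 0 of 3048 stretches of 31 bases occurred in a transcript of another gene, and 0 annotated genes overlap Mmp2, so in this annotation such stretches match Mmp2 alone.

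The guides that set WT and KO cells apart are shown for the same reason, with positions in GRCm38. The Ikzf1 guide matched chr11:11707798-11707817 in coding exon 3, antisense to the gene, and the Ikzf3 guide matched chr11:98490523-98490542 in coding exon 4, and each match is followed by the bases GGG, the kind of motif Cas9 needs beside its target.
Ikzf1 guide: ctggagtgtcactgactggg
Ikzf3 guide: attatgaagccggagcccat

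In ERT2 WT libraries Mmp2 stood at 6.77, 6.73 and 6.71, and in Cre-ERT2 WT libraries at 6.73, 6.73 and 6.75. In ERT2 KO libraries it stood at 10.97, 10.96 and 11.01. In Cre-ERT2 KO libraries it stood at 12.07, 12.09 and 12.03. The 6 WT libraries overlapped completely between vectors, every KO library lay above every WT library, and every Cre-ERT2 KO library lay above every ERT2 KO library. The means with SD (n = 3) were 6.73 ± 0.0325 for ERT2 WT, 6.74 ± 0.0146 for Cre-ERT2 WT, 10.98 ± 0.0271 for ERT2 KO and 12.06 ± 0.0299 for Cre-ERT2 KO. From low to high the order was therefore ERT2 WT and Cre-ERT2 WT, which do not differ beyond their spread, then ERT2 KO, then Cre-ERT2 KO. The name under which the gene was chosen, raised by both perturbations, holds for editing with either vector and for β-catenin in KO cells. It does not hold for the values with β-catenin in WT cells, which stood near a possible lower limit of the scale described below.

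**Figure D1:**
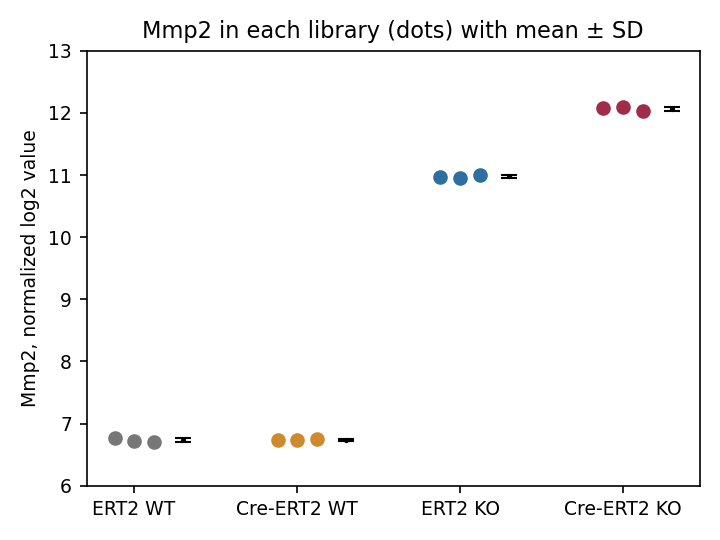
Normalized log2 value of Mmp2 in each of 12 libraries (dots, y axis) by group (x axis), with the mean and SD of 3 libraries beside them (black). WT libraries of both vectors lie between 6.71 and 6.77, ERT2 KO libraries between 10.96 and 11.01 and Cre-ERT2 KO libraries between 12.03 and 12.09.

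Editing of Ikzf1 and Ikzf3 came with a difference in Mmp2 of 4.24 log2 units in ERT2 libraries (SE 0.0274, 18.9-fold). This is a description, as the value chose the gene. It ranked 3 of 12151 genes, below Tbx19 (4.57), a T-box transcription factor, and Mmrn1 (4.26), an endothelial and platelet matrix protein, and above Tead1 (3.94), Luzp1 (3.94) and Uaca (3.94). The table as a whole was centered on 0.00160, with 1.12 as its 99th percentile, and 148 genes reached a difference of 1. In Cre-ERT2 libraries the same comparison gave 5.33 (SE 0.0274, 40.1-fold), the largest difference in the table, ahead of Tbx19 (4.61) and Uaca (4.46).

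β-catenin stabilization came with a difference in Mmp2 of 1.09 in KO cells (SE 0.0274, 2.12-fold), which ranked 9. The neighbours in rank were Pdzd2 (1.11) and Nkd1 (1.10), the latter a Wnt pathway inhibitor, above it and Pcp4 (1.07) and Cd244 (1.04) below it. The 99th percentile of all genes was 0.374, and 14 genes reached a difference of 1. In WT cells the difference was 0.0042 (SE 0.0274), at rank 5497 with a table median of 2.18e-05, and 9.13% of genes lay as close to 0 or closer. The gap between the effects in KO and in WT cells was 1.08 (SE 0.0388), which ranked 3 behind Ccr2 (1.76) and Cd28 (1.52).

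Added on the log2 scale, the separate differences for editing in ERT2 cells and for Cre in WT cells came to 4.25, whereas Cre-ERT2 KO lay 5.33 above ERT2 WT (40.2-fold). On unlogged values the group means were 106.4 and 106.7 in ERT2 WT and Cre-ERT2 WT, 2016 in ERT2 KO and 4281 in Cre-ERT2 KO. Editing thus came with a gain of 1909 unlogged units (SE 22.0) and β-catenin in edited cells with a further 2265 (SE 55.5), against 0.296 (SE 1.52) in WT cells. On the unlogged scale the step with β-catenin was the larger of the 2 steps in edited cells, and on the log2 scale the step with editing was.

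How far the WT value stands for Mmp2 RNA at all cannot be told from this table. Of 4703 genes whose highest group mean reached 10, none had a lowest group mean below 6.62 (Fzd6), and Mmp2 in WT cells stood just above that level. Of 26 genes with a difference of at least 2 between KO and WT, both vectors together, 9 had WT means between 6.6 and 6.8, a band that holds 1.45% of the table, and 0 had a lower WT mean although 3045 genes did. That 0 depends on the limit of 2, since Nkg7, with a WT mean just under the band, had a difference of 1.97 with both vectors together, and at a limit of 1 there were 17 of 155 genes with a WT mean under the band. Uaca (6.68), Mmrn1 (6.70) and Tead1 (6.67) stood in that band in ERT2 WT libraries beside Mmp2.
The SD of Mmp2 over the 6 WT libraries was 0.0226, against a median of 0.0431 for the 455 genes with WT means of 6.5 to 7.0. In ERT2 WT libraries alone the SD of Mmp2 was 0.0325, against 0.00908 for Uaca, 0.0092 for Mmrn1 and 0.00819 for Tead1. If the scale has a lower limit for such genes, the folds against WT cells are understated and an effect of β-catenin below that limit would not show. That was not tested, since it needs read counts. The difference within KO cells, at 10.98 and 12.06, lies far above this level.

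**Figure D2:**
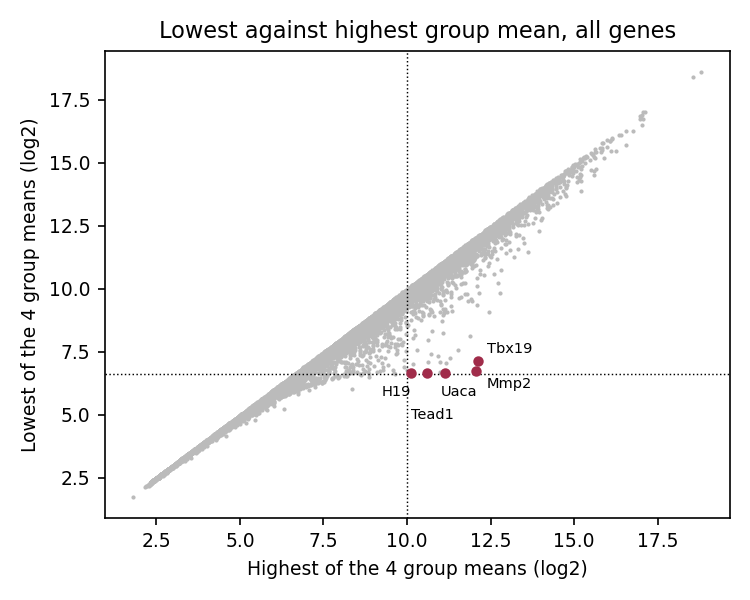
Lowest (y axis) against highest (x axis) of the 4 group means, log2, for all 12151 genes (grey), with Mmp2 and 4 of the genes nearest to it in red. To the right of 10 (vertical dotted line) no gene falls below 6.62 (horizontal dotted line), and Mmp2 lies close to that edge.

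Genes with a pattern like that of Mmp2 were looked for among the 345 genes with a symbol and a range of at least 1 log2 unit over the group means. Distance was the root mean square gap over 12 libraries after each gene was set to 0 at its ERT2 WT mean. Tbx19 was nearest (0.302 log2 units), followed by Uaca (0.460), Mmrn1 (0.524), Luzp1 (0.675) and Tead1 (0.741), a transcription factor that binds the coactivators YAP and TAZ. Maged1, Amotl1, Vldlr, Ak4 and H19 followed at 0.963 to 1.39. All of these genes had the large step between WT and KO, and they varied in the step with Cre. In KO cells the difference upon Cre was 0.03 for Mmrn1, 0.08 for Luzp1 and -0.06 for Tead1, against 0.43 for Tbx19, 0.53 for Uaca, 0.65 for Vldlr and -0.62 for H19, the imprinted noncoding RNA.

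**Figure D3:**
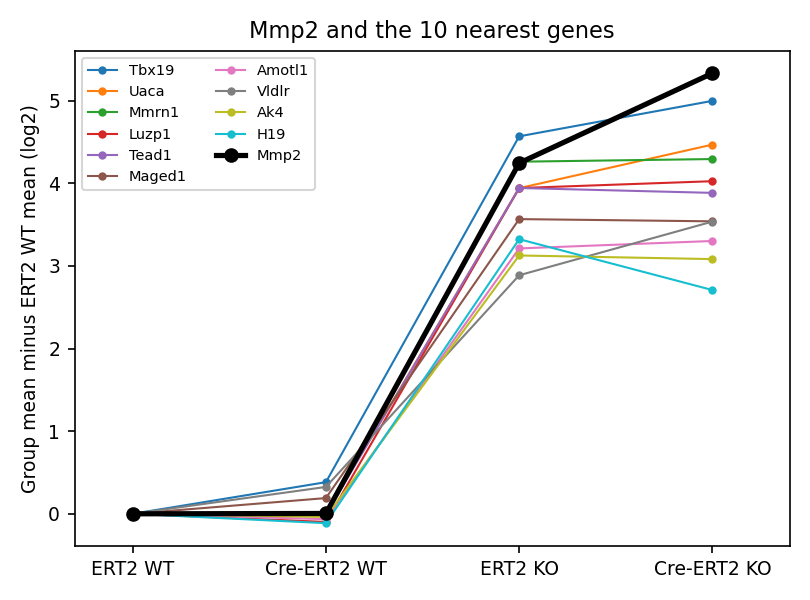
Group means minus the ERT2 WT mean (y axis, log2) in the 4 groups (x axis) for Mmp2 (thick black line) and the 10 genes nearest to it. All 11 genes are higher in KO than in WT, and Mmp2 has the steepest step from ERT2 KO to Cre-ERT2 KO.

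Uaca, the 1 gene that was among the 10 most like Mmp2 by distance and by correlation, stood at 6.68 ± 0.00908 in ERT2 WT, 6.68 ± 0.0122 in Cre-ERT2 WT, 10.62 ± 0.0553 in ERT2 KO and 11.14 ± 0.0795 in Cre-ERT2 KO (SD, n = 3). Like Mmp2 it showed no difference upon Cre in WT cells beyond the spread (0.0037), and a difference in KO cells. In WT cells both genes stood near the possible lower limit of the scale, where an effect of Cre may not show. By Pearson correlation over the 12 libraries, which ignores the size of the steps, the 10 genes most like Mmp2 were Frmd6, Clic5, Armcx2, Rai14, Adssl1, Lyz2, Trpa1, Znrf3, Rps6ka1 and Uaca, with r of 0.997 to 0.998. The same libraries and the same split into WT and KO stand behind each of these values, and 168 of the 345 genes reached an r of 0.95, so a high r is common among them.

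A difference of at least 1 upon editing (ERT2) together with at least 0.5 upon Cre in KO cells was met by 11 genes. The comparisons share the ERT2 KO libraries, 148 genes passed the first limit and 58 the second, and the list was set by its own values. Beside Mmp2 it held Uaca, Vldlr, C1qtnf1, Grb7, Megf10, Trim16, Smad3, Etv5, Trib1 and Kbtbd11. Just inside the limits were Trim16 (1.04 upon editing) and Uaca (0.53 upon Cre). Mmp2 had the largest difference upon editing of the 11 and, behind Grb7 (1.24), the next largest upon Cre. C1qtnf1, a secreted C1q and TNF related protein, had 1.37 upon editing and 1.03 upon Cre in KO against 0.13 in WT, the nearest to Mmp2 in the gap between backgrounds (0.90). Smad3, which carries TGF-β signals to the nucleus, had 1.28 upon editing and 0.54 upon Cre in KO. In WT cells 3 of the 11 also reached 0.5 upon Cre, namely Megf10 (0.97), Etv5 (0.74) and Kbtbd11 (1.05), and 8, among them Mmp2, did not.

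**Figure D4:**
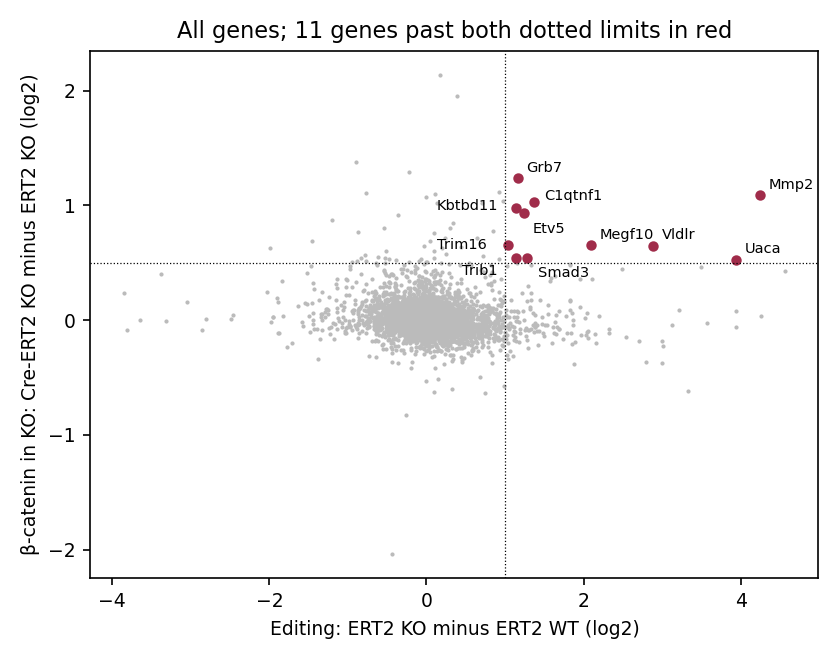
Difference upon editing (x axis, ERT2 KO minus ERT2 WT, log2) against difference upon β-catenin stabilization in KO cells (y axis, Cre-ERT2 KO minus ERT2 KO, log2) for all 12151 genes (grey). The 11 genes past 1 and 0.5 (dotted lines) are red, and Mmp2, at 4.24 and 1.09, lies farthest to the right of them.

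The genes of the Mmp2 system were taken from 7 lists covering related proteases, inhibitors, activation and docking proteins, substrates and transcriptional regulators, and 61 members had a row. Calls are from limma's moderated test with Benjamini-Hochberg adjustment over all 12151 genes, at an adjusted p under 0.05. Upon editing 42 of the 61 (68.9%) were called in ERT2 libraries, 22 higher and 20 lower, against 59% of all genes tested. The 27 transcription regulators gave 22 of these 42 calls, so the share of the 61 does not stand for the protease lists. In Cre-ERT2 libraries 46 (75.4%) were called, 23 in each direction, against 58.9% of all genes. Transcription regulators gave 23 of these 46 calls. Upon Cre 16 (26.2%) were called in WT cells against 11.9% of all genes, and 12 (19.7%) in KO cells against 12.6%. Transcription regulators gave 9 of the 16 and 9 of the 12. The effect of Cre differed between backgrounds for 6 members (9.84%) against 4.53% of all genes, and 3 of the 6 were transcription regulators. With each library centered on its median the ERT2 comparison gave 21 higher and 29 lower calls, so the balance of directions depends on the scaling. The median difference of the 61 upon editing was 0.00166, beside 0.00160 for all genes.

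Among the other matrix metalloproteinases 6 of 22 had a row. Upon editing in ERT2 libraries 4 of the 6 changed, where 59% of all genes were called. Mmp15, a membrane-type metalloproteinase, stood at 5.06, 5.06 and 5.06 in ERT2 WT, 5.06, 5.07 and 5.08 in Cre-ERT2 WT, 5.22, 5.19 and 5.22 in ERT2 KO and 5.52, 5.56 and 5.54 in Cre-ERT2 KO. The KO libraries lay above all WT libraries, and the Cre-ERT2 KO libraries above all others, the same order of groups as in Mmp2 at a far smaller size. Mmp15 rose by 0.15 upon editing (SE 0.0168, adjusted p = 7.49e-06, limma) and by 0.33 upon Cre in KO cells (adjusted p = 4.9e-08), with a difference of 0.01 upon Cre in WT cells (adjusted p = 0.788). The effect of Cre differed between KO and WT cells by 0.32 (SE 0.0238, adjusted p = 7.34e-06). All values of Mmp15 were low, far under the library medians of 9.06 to 9.11. Whether an effect of Cre in WT cells is hidden at that level was not tested, since it needs read counts.

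Mmp16, another membrane-type enzyme that can activate pro-Mmp2, stood at 6.59, 6.66 and 6.77 in ERT2 WT, 6.62, 6.59 and 6.64 in Cre-ERT2 WT, 7.64, 7.54 and 7.62 in ERT2 KO and 7.76, 7.57 and 7.54 in Cre-ERT2 KO. WT and KO libraries did not overlap, and within each background the vectors did. It rose by 0.93 upon editing in ERT2 libraries (SE 0.0569, adjusted p = 2.19e-08, limma) and by 1.01 in Cre-ERT2 libraries (adjusted p = 8.97e-09). Upon Cre in KO cells the difference was 0.03 (SE 0.0569, adjusted p = 0.818). The WT means of Mmp16, 6.67 with ERT2 and 6.61 with Cre-ERT2, lay near the possible lower limit described for Mmp2. Whether its folds against WT are understated or an effect of Cre in WT is hidden there was not tested. Mmp13, a collagenase, and Mmp17, a GPI-anchored enzyme, fell slightly upon editing (-0.10 and -0.11), from low means of 3.74 and 4.55 in ERT2 WT. Mmp11, or stromelysin 3, stood near 9 in every group (8.92 to 9.03), and Mmp12, the macrophage elastase, passed no test. The other gelatinase Mmp9, the membrane-type enzymes Mmp14, Mmp24 and Mmp25, and the inhibitors Timp1, Timp2, Timp3, Timp4 and Reck were not analysed here, so the balance of Mmp2 and its inhibitors is not described.

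**Figure D5:**
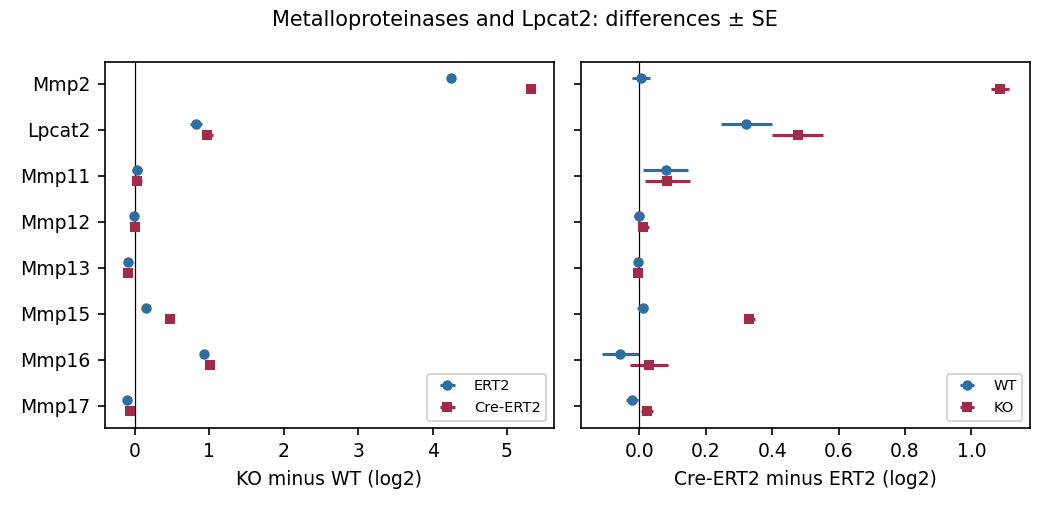
Log2 differences with SE for Mmp2, its neighbour Lpcat2 and the 6 other metalloproteinases, for KO minus WT (left, in ERT2 and Cre-ERT2 libraries) and Cre-ERT2 minus ERT2 (right, in WT and KO cells). Mmp2 stands far to the right upon editing (4.24 and 5.33), and upon Cre Mmp2 and Mmp15 differ in KO cells (1.09 and 0.33) and lie near 0 in WT cells.

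Of the genes that activate, dock or induce metalloproteinases, 8 of 12 had a row and 5 changed upon editing in ERT2 libraries, 4 of them upward. Over all genes 59% were called in that comparison, so 5 of 8 is near that share. Bsg, known as an inducer of metalloproteinases in neighbouring cells, rose from 12.32 ± 0.0255 to 12.94 ± 0.037 in ERT2 libraries (0.63, SE 0.0228, adjusted p = 1.22e-10, limma, n = 3). Cd44, the hyaluronan receptor that docks gelatinases, rose by 0.47, and Itgav, the αv chain of the integrin that binds Mmp2, rose by 0.32. Plau, or urokinase, rose by 0.07 from a low mean of 3.58 in ERT2 WT. Lgmn, a protease that can process pro-Mmp2, fell by 0.59 in ERT2 and by 0.52 in Cre-ERT2 libraries. Upon Cre Lgmn alone passed limma's test in WT cells (-0.16, adjusted p = 0.0104), where 11.9% of all genes were called. In KO cells 0 of the 8 passed limma's test, with 1 at an unadjusted p under 0.05, against 12.6% of all genes called.

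In the ADAM and ADAMTS families 9 of 24 members had a row and 4 changed upon editing in ERT2 libraries, against 59% of all genes. Adam19 fell by 0.86 and the sheddase Adam10 by 0.35, while Adam15 rose by 0.19. Adam10 rose upon Cre in WT (0.23) and in KO cells (0.14). Among matrix substrates 6 of 30 had a row, and 3 fell upon editing in ERT2 libraries while none rose. Of all genes 29.3% were called lower and 29.8% higher in that comparison. Lamb3, a laminin chain whose heterotrimer Mmp2 can cut, fell by 0.87 (SE 0.0823, adjusted p = 1.36e-06, limma). Lamc1 fell by 0.24, and upon Cre it fell by 0.20 in WT cells and differed by 0.01 in KO cells.

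Among substrates outside the matrix 5 of 14 had a row. Upon editing in ERT2 libraries 4 changed, 3 upward and 1 downward, beside 59% of all genes called. Tgfb3, a TGF-β ligand that metalloproteinases can release from its latent form, stood at 7.62, 7.58 and 7.55 in ERT2 WT, 7.79, 7.79 and 7.85 in Cre-ERT2 WT, 9.64, 9.61 and 9.64 in ERT2 KO and 9.70, 9.67 and 9.71 in Cre-ERT2 KO. The groups of KO and WT libraries did not overlap. Tgfb3 rose by 2.05 upon editing (SE 0.028, adjusted p = 1.78e-14, limma) and by 0.23 upon Cre in WT cells (adjusted p = 0.000187), with 0.07 upon Cre in KO cells (adjusted p = 0.163). Tgfb1 rose by 0.69 and Dag1, the dystroglycan gene, by 0.52 upon editing, and neither passed the test upon Cre. Tnf, the inflammatory cytokine that metalloproteinases can shed, fell by 0.12 upon editing in ERT2 libraries (adjusted p = 0.00378) and by 0.09 in Cre-ERT2 libraries (adjusted p = 0.0186), the latter call being lost without Cre-ERT2 WT replicate 1 (-0.06, adjusted p = 0.0884).

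Of 35 transcription factors known to act on metalloproteinase genes, 27 had a row and 22 changed upon editing in ERT2 libraries, 12 upward and 10 downward. Over all genes 59% were called, 29.8% higher and 29.3% lower. Etv5, an ETS factor of the PEA3 group, stood at 11.40, 11.45 and 11.49 in ERT2 WT, 12.20, 12.19 and 12.18 in Cre-ERT2 WT, 12.66, 12.67 and 12.74 in ERT2 KO and 13.64, 13.61 and 13.63 in Cre-ERT2 KO. Its 4 groups did not overlap and rose in that order. Etv5 rose by 1.25 upon editing (SE 0.0262, adjusted p = 6.83e-13, limma), by 0.74 upon Cre in WT cells (adjusted p = 2.26e-09) and by 0.94 upon Cre in KO cells (adjusted p = 1.46e-10). It thus moved upon Cre in WT cells, where the value of Mmp2 did not. Mmp2 stood near the possible lower limit of the scale there, so an effect on it may not show.
Among the other factors Etv1 (0.78) and Atf3 (0.61) rose upon editing, and the AP-1 subunits Jun (-0.64) and Jund (-0.64) fell. Jund also fell upon Cre by 0.32 in either background. Ets1 rose upon Cre by 0.27 in WT cells (adjusted p = 2.39e-05), and the effect of Cre differed between KO and WT cells by -0.37 (SE 0.0365, adjusted p = 6.74e-05, limma). In KO cells Ets1 differed upon Cre by -0.10 (adjusted p = 0.0197, and 0.00578 to 0.0928 over the alternatives), a call that was lost in 6 of 20 alternatives, among them those without ERT2 KO replicate 1 or 3 (-0.09 in either) and without Cre-ERT2 KO replicate 1 (-0.10) or 2 (-0.09).

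Of 44 genes annotated within 1000 kb of Mmp2, 15 of them protein-coding, 3 had a row. Lpcat2, a lysophosphatidylcholine acyltransferase that begins 1.92 kb downstream of the end of Mmp2 on the same strand (chr8:92855339-92919279), stood at 8.21, 8.16 and 8.11 in ERT2 WT and 8.65, 8.36 and 8.45 in Cre-ERT2 WT. In the KO libraries it stood at 8.97, 8.87 and 9.10 with ERT2 and at 9.57, 9.43 and 9.37 with Cre-ERT2. Its 4 groups did not overlap, and the order of the KO groups was that of Mmp2. Lpcat2 rose by 0.82 upon editing in ERT2 libraries (SE 0.0765, adjusted p = 1.19e-06, limma), by 0.97 in Cre-ERT2 libraries (adjusted p = 2.21e-07) and by 0.48 upon Cre in KO cells (adjusted p = 0.0012).
In WT cells Lpcat2 rose by 0.32 upon Cre (adjusted p = 0.0157), a call that was lost without ERT2 WT replicate 3 (0.30, adjusted p = 0.0571) or without Cre-ERT2 WT replicate 1 (0.24, adjusted p = 0.0592). Over all alternatives that adjusted p ran from 0.00982 to 0.0592. Its effect of Cre did not pass the test of a difference between backgrounds (0.15, SE 0.108, adjusted p = 0.524). Whether reads that run past the end of Mmp2 enter the value of Lpcat2 was not tested. Gnao1, 957 kb away, fell by 0.17 upon editing in ERT2 libraries (adjusted p = 0.000393, limma), and Crnde, on the other side of Mmp2, did not pass the test (0.02, adjusted p = 0.195). The other genes of the interval, among them Irx5, Irx6, Capns2, Slc6a2 and the carboxylesterase cluster, were not analysed here.

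Because Mmp2 is known from stromal and myeloid cells, markers of other cell types were set beside it. Of 20 markers of fibroblasts and marrow stroma 2 had a row, Sparc and Lepr, and both stood near the bottom of the table (2.28 to 2.91 over the 12 libraries), with a summed unlogged value of 12.2 to 12.4. Of 12 monocyte and macrophage markers 5 had a row, with a summed unlogged value of 294.0 to 294.1 in ERT2 WT, 309.4 to 312.5 in Cre-ERT2 WT, 461.4 to 477.0 in ERT2 KO and 752.4 to 786.7 in Cre-ERT2 KO. That sum was highest in the same groups as Mmp2, and its largest differences were in Lyz2, the macrophage lysozyme, and Ccr2, a chemokine receptor.
Lyz2 had means of 7.41 and 7.38 in the WT groups, 8.40 in ERT2 KO and 8.61 in Cre-ERT2 KO. Ccr2 had 6.04 and 6.41 in the WT groups, 6.21 in ERT2 KO and 8.35 in Cre-ERT2 KO. Itgam and Mrc1, also macrophage markers, fell upon editing (-0.15 and -0.07), and Cd68 differed by 0.06. Among 10 endothelial markers 2 had a row, of which Eng rose by 2.32 and Pecam1 fell by 1.03 upon editing. The summed values of the single granulocyte marker lay between 5.15 and 5.42. Those of 3 T cell markers were 700.5 to 730.6 in ERT2 WT and 1173 to 1225 in Cre-ERT2 WT. In KO libraries they were lower, 398.9 to 404.0 with ERT2 and 592.5 to 602.4 with Cre-ERT2. The T cell sum was thus higher with Cre-ERT2 in either background. All 3 T cell markers were called higher upon Cre in WT and in KO cells, against 5.93% and 7.27% of all genes. In ERT2 libraries Lck (-1.45) and Zap70 (-0.31) fell upon editing, while Cd5 rose by 0.13. The summed values of 3 NK cell markers were higher in KO (398.9 to 452.6) than in WT libraries (141.9 to 151.0). Of these only Nkg7 rose upon editing in ERT2 libraries (2.03), while Klrd1 fell (-0.13) and Klrb1c differed by -0.01. Of 10 erythroid and megakaryocyte markers 0 were analysed here. The part of other cell types in the Mmp2 values was not tested, and in bulk RNA more cells of a type cannot be told apart from more RNA per cell.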

How the data were processed

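Polyadenylated RNA of 12 libraries, in 4 groups of 3, was grouped by the sample titles. Per the study's methods, the authors used Salmon 1.4.0 for quantification, STAR 2.7.6 for alignment to mm10 (GRCm38) and DESeq2 1.30.1 for analysis. They deposited log2 values that had been normalized between libraries. Their transformation and any removal of genes are not stated, and depth is unknown. The log2 values were used as deposited. In R 4.3.3, limma 3.58.1 (eBayes with a mean-dependent prior) estimated 4 group means from the 12 libraries together, with Benjamini-Hochberg adjustment over 12151 genes and calls at an adjusted p under 0.05. The fit was tested on simulated data. Mmp2, the gene lists and the rules for named genes (largest called members of each list, genes within 1000 kb, nearest genes by distance and by r, genes raised by both) were chosen with earlier results of these data known. Gene positions and coding sequences are from the GENCODE M21 annotation of GRCm38. Guide sequences are those of the study, matched to that genome. Alternatives changed scaling, pseudocount (1), filter, prior, samples, replicate block and threshold (0.01).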

Additional observations from a re-analysis of the deposited data

Results flagged for a closer look

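The effect of Cre differed between KO and WT cells, by the test of that difference (limma, adjusted p under 0.05 over 12151 genes), for 6 members of the Mmp2 system lists, for the neighbour Gnao1, for the monocyte and macrophage markers Ccr2 and Lyz2 and for the edited gene Ikzf1. Values are the effect in KO cells minus that in WT cells. The difference was 1.76 for Ccr2 (adjusted p = 8.2e-09), 0.32 for Mmp15 (adjusted p = 7.34e-06), 0.24 for Lyz2 (adjusted p = 0.0145), 0.19 for Etv5 (adjusted p = 0.0106) and 0.18 for Gnao1 (adjusted p = 0.0426). Mmp15 stood low in ERT2 WT libraries (5.06), and whether an effect of Cre is hidden at that level was not tested. It was 0.34 for Zeb2, a transcriptional repressor (adjusted p = 0.0145), which fell upon Cre in WT cells (-0.37) and differed by -0.03 in KO cells, and 0.21 for Lamc1 (adjusted p = 0.0469), which fell in WT cells (-0.20) and differed by 0.01 in KO cells. The difference was negative for Ikzf1 (-0.10, adjusted p = 0.0422), Tgfb3 (-0.16, adjusted p = 0.0391) and Ets1 (-0.37, adjusted p = 6.74e-05). Pre-B, T cell and NK cell markers that passed the same test are not described here.

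When each of the 12 libraries was left out in turn, the call was lost 9 times for Lamc1, 9 times for Gnao1, 11 times for Ikzf1 and 10 times for Tgfb3, and for these genes it was also lost with a replicate block. For Ccr2, Mmp15 and Ets1 the call was kept in each alternative run. For Zeb2, Lyz2 and Etv5 it was lost only at an adjusted p under 0.01. With 3 libraries a group, single outlying libraries were not looked for.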

How the results depend on the processing

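The differences of Mmp2 kept their sign, except for Cre in WT cells, and moved by more than the replicate SD only upon rescaling. With each library centered on its median, editing gave 4.21 in ERT2 and 5.29 in Cre-ERT2 libraries, and with quantile normalization 4.19 and 5.29. Without single libraries they ranged from 4.23 to 4.26 (editing, ERT2), 5.31 to 5.34 (editing, Cre-ERT2), 1.08 to 1.10 (Cre in KO) and 1.06 to 1.10 (gap between backgrounds), and Cre in WT ranged around 0, from -0.0096 to 0.0221.

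Fitted to its own groups alone, Cre in WT gave 10 called system members, and at an adjusted p under 0.01 also 10, against 16. At that threshold the gap between backgrounds gave 2 against 6. Without single libraries these counts ranged from 11 to 16 and from 4 to 7, and Cre in KO from 8 to 12. Of the 3 genes near Mmp2, editing (ERT2) called 1 instead of 2 with genes of low mean left out, and so did Cre in KO, which also called 1 when fitted alone and at 0.01. Cre in WT called 0 instead of 1 at 0.01 (limma, 1 at an unadjusted p under 0.05). The gap between backgrounds called 0 instead of 1 with quantile normalization, the filter, without the prior, with the replicate block and at 0.01. Without single libraries the counts ran from 0 to 1 (Cre in WT and the gap) and from 1 to 2 (Cre in KO).

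Deviations of same-numbered libraries had correlations of -0.0395 to 0.0883, apart from 0.244 for replicate 1 between the Cre-ERT2 groups. The main fit used no pairing by replicate number. With a replicate block the called system members were 42 and 45 (editing), 14 and 11 (Cre in WT and KO) and 4 (gap). Read counts, which would show whether the WT value of Mmp2 stands for any reads, set the limit of these data.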
